A study of Mus musculus with 24 samples.

Results

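The cytosolic ribosomal protein genes encode the protein subunits of the ribosome that translates nuclear messages in the cytoplasm. They were taken from the expression table by symbol (Rpl or Rps with a number, and Rpsa, Rplp0, Rplp1, Rplp2 and Rps3a1; the Rps6k kinases were left out). The rule matched 85 rows, of which 83 had values, out of 13738 genes measured. Rpl39 and Rps3a were listed without a value. Of the 83 members, 47 belong to the large subunit, 33 to the small subunit and 3 (Rplp0, Rplp1, Rplp2) to the stalk, the part of the large subunit that recruits elongation factors. The annotation gives 80 of them as coding genes and lists Rpl6l, Rpl32l and Rps4l as processed pseudogenes.

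RNA came from brain vessels of mice 9 to 11 months old, captured with magnetic beads against CD31, an endothelial surface protein. The 4 groups of 6 mice were APP males and APP females, which carry the APP/PS1 transgenes that model familial Alzheimer's disease and cause amyloid plaques, and WT males and WT females. The labels give neither the transgenes' promoters nor the WT strain. Values are CPM, read counts scaled to a common library total, in messenger RNA libraries selected by their poly(A) tails.

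A ribosome needs its proteins in equal numbers, and cells coordinate their synthesis. Many of these messages begin with a run of pyrimidines, the 5′ terminal oligopyrimidine tract, through which the kinase complex mTORC1 controls their translation together. The same messages have been copied back into the mammalian genome many times as intronless retrocopies, so a short read from one gene can match several places. Fewer cells of a type and less RNA per cell cannot be told apart in these bulk libraries.

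The lowest value of any member was 1.73 CPM. Library totals were inferred; taking the common step of a library's values as 1 read, they would lie between 52.39 M and 75.93 M reads (M, 1e6). Every value is a whole multiple of that step within 0.01 of a read, but most libraries have too few values near 1 read to settle the step, so the totals are estimates. All 14 endothelial markers were measured, and their sum lay between 15555 and 22195 CPM over the 24 libraries; no marker of the 12 cell type lists that had a value was at 0 in any library. In APP with the sexes averaged, 9 of 9 measured markers of plaque-associated microglia were higher, beside 4.78% of all genes. The libraries carry short names (a letter and 1 or 2 digits) or long ones (a letter and 4 digits): short names belong to every WT male and to 4 mice of each APP sex, long names to every WT female and to the other 2 mice of each APP sex. The labels do not say what the styles mark. They divide both APP groups, while in WT they coincide with sex.

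Printed first are coding stretches of 90 bases from members beside their closest measured copies, since long runs of both are the same. They were read 5′ to 3′ from the GENCODE M21 transcripts (build mm10); capitals mark the bases that differ between member and copy, with positions counted from 1 at the start codon's first base. Rpl29, a large-subunit gene on chromosome 9 (106429454 to 106431568, plus strand), and Gm8210 on chromosome 1 (43189156 to 43189638) differ by C72A, C300T and T423C, 3 substitutions in 480 coding bases. Rpl21, a large-subunit gene on chromosome 5 (146832890 to 146837032, plus strand), differs from BC004004 on chromosome 17 by 7 bases in 480, of which A360G, G399A, T432C and G433A fall in the stretch. Rpl37 and Rpl37rt differ by G249A alone in 291 bases. Rps27 and Rps27rt have the same 252 coding bases.
Rpl29, bases 27 to 116: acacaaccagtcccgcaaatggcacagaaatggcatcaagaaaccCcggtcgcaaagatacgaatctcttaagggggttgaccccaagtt
Gm8210, the same bases: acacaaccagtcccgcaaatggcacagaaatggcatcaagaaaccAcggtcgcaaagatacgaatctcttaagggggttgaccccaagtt
Rpl21, bases 351 to 440: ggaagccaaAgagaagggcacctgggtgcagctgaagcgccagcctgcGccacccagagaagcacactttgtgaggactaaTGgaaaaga
BC004004, the same bases: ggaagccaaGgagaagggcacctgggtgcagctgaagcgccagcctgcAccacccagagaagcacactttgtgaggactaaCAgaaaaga
Rpl37, bases 202 to 291: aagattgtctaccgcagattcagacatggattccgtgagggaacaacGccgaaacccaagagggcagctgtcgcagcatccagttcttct
Rpl37rt, the same bases: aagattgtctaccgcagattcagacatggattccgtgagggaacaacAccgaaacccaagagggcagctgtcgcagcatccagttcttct

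Near-identical copies were the rule among these genes. Of the 80 coding members, 76 had at least 1 annotated transcript of another gene that matched 90% or more of their coding sequence at 95% identity or more; the median was 5 copies and the most was 56, for Rpl21. The 555 copies included 69 with values in the table, which belonged to 42 members, and these 69 rows summed to 41.3% of the members' own sum. In 15 members the copy was the higher row. Rps27 averaged 16.1 CPM and Rps27rt 247; Rpl37 averaged 26.5 CPM and Rpl37rt 190.0; Rpl23 averaged 54.1 CPM and Gm9794, which differs from it by 1 base, 306; Rpl13 averaged 4.83 CPM and Rpl13-ps6 42.9. The sources used here do not say how the counting treated reads that match several genes, so the level of such a row is uncertain, and levels of pairs are best read together.

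Levels among the members spanned 430-fold per kb of exonic length. That length comes from the annotation and not from the messages in these cells. Not divided by length, mean levels ran from 4.83 CPM (Rpl13) to 490 CPM (Rps3), a narrower span. Among the highest were Rplp1 (801 CPM per kb), Rps15 (505), Rpl8 (319) and Rpl41 (271). The 5 lowest were Rpl13 (1.86 CPM per kb), Rps13 (2.52), Rpl36a (3.53), Rps12 (4.05) and Rpl12 (4.44), each of which had no coding window of 50 bases that is absent from every transcript of other genes. Over the coding members, 30 had no such unique window and a median level of 13.7 CPM per kb, while 50 had some and a median of 41.4. Across the 80 genes Spearman's rho between the share of unique windows and the level per kb was 0.58; the genes share their libraries and are not independent. Rpl41 is the exception at the top, with no unique window and 271 CPM per kb, from a coding sequence of 75 bases.

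**Figure D1:**
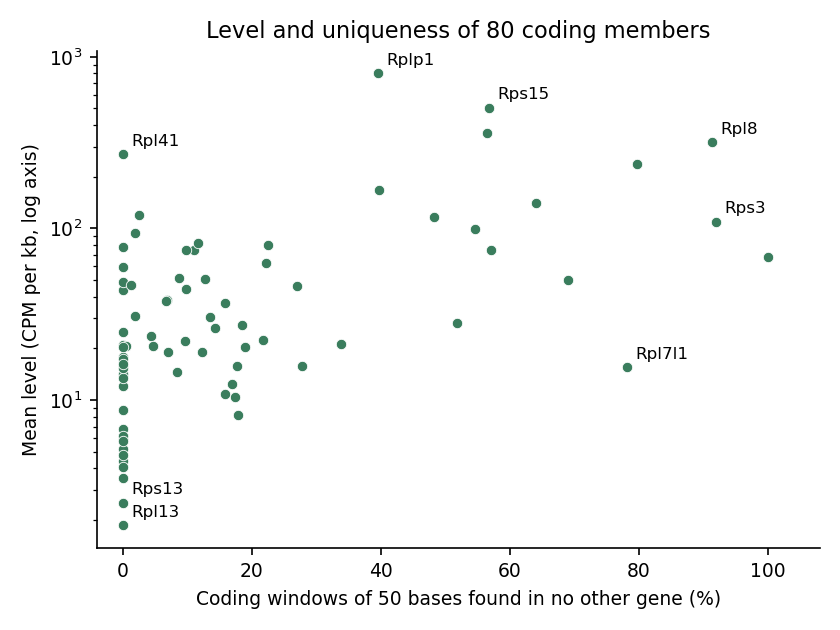
Mean level over the 24 libraries in CPM per kb of exonic length (vertical log axis) against the percentage of 50-base coding windows found in no other gene (horizontal axis), 1 point per coding member (80). The column at 0% holds 30 members and reaches down to Rpl13 at 1.86 CPM per kb.

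Members varied between mice about as much as genes in general. The median SD over the 24 libraries was 0.198 on the log2(CPM + 1) scale, beside 0.213 for all genes. The median level was 54.3 CPM for members and 25.6 CPM for all genes. Of the members, 55 kept within a 2-fold range, a count not made over all genes. Rpl7, a large-subunit gene, was among the steadier ones: its lowest, median and highest levels were 209, 223 and 239.9 CPM in APP males, 208, 224 and 237 in APP females, 181, 198 and 233 in WT males, and 182, 221 and 232 in WT females. The ranges of all 4 groups overlapped.

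A few members instead sat at separate levels. Rpl21, Rps18, Rps3a1, Rpl29 and Rpl3 had a gap of over 0.5 log2 units between 2 neighbouring libraries when the 24 were sorted, as did 6.70% of all genes. The search for gaps was made after the values were seen. Below, Rps18, Rps2 and Rpl29 are split at their 2 widest gaps, and Rpl21 and Rps3a1 at their widest. The number of levels was thus set, and not every cut is at a gap over 0.5.

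Rpl21 was at 1.73 to 4.11 CPM in 11 libraries and at 24.6 to 54.9 CPM in the other 13. The low set held 5 of 6 APP males, 5 of 6 APP females and 1 WT female (replicate 6); APP male 5 and APP female 2, both with long names, stood with the WT libraries. Its copies did not show the step: BC004004 was at 49.9 to 57.6 CPM in the low libraries and 41.6 to 58.5 in the others, and Gm10045 at 12.8 to 19.7 against 8.91 to 18.4. Summed with its 3 measured copies, Rpl21 varied 1.64-fold over the 24 libraries, where alone it varied 31.7-fold. Rpl21 itself made 23.3% of the mean sum.

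Rpl29 had 3 levels, and Gm8210 mirrored them. In 13 libraries Rpl29 was at 96.3 to 127 CPM and Gm8210 at 14.6 to 20.7. In 10 libraries, which included all 6 WT males, 3 APP males and 1 WT female, Rpl29 was at 48.4 to 61.6 CPM and Gm8210 at 44.2 to 59.2. In APP female 6 Rpl29 was at 4.88 CPM and Gm8210 at 90.5. Their log2 levels correlated at r = -0.80 over the 24 libraries, and their sum stayed between 92.7 and 146 CPM.

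Rps18, which encodes a small-subunit head protein and lies on chromosome 17 (33951999 to 33956001, minus strand), was also split into 3 levels. It was at 8.49 to 9.45 CPM in 5 short-named APP libraries, at 25.3 to 40.6 CPM in APP male 3 and the 6 WT males, and at 56.4 to 85.9 CPM in 12 libraries, among them all 6 WT females and all 4 long-named APP libraries. Rps2, another small-subunit gene on chromosome 17 (24718116 to 24721929, plus strand), put the same libraries in the same order of 3 levels, at 29.2 to 35.2, 47.2 to 63.4 and 75.8 to 104 CPM; the log2 levels of both correlated at r = 0.99 over the 24 libraries. Of the 20 genes whose levels followed Rps18 most closely by absolute r, 19 lie on chromosome 17, which holds 5.15% of the genes, and for Rps2 the count was also 19. For Rpl29, 9 of the 20 lie on its own chromosome 9 (5.66% of genes), and for Rpl3, 5 lie on chromosome 15 (3.89%). For Rpl21, 0 of the 20 lie on its own chromosome 5 (6.35%). The genes most like Rps3a1, which is on chromosome 3, were Pttg1, Ccl27a and Hpgd, on chromosomes 11, 4 and 8. Rpl18, which is not among the members with a gap, had 5 of 20 on its chromosome 7 (7.75%). The median member had 1 of 20 on its own chromosome. The gene on another chromosome among the 20 of Rps18 is Gm6436, on chromosome 13 (r = 0.99). After it and Rps2, the genes most like Rps18 were Rnps1 (r = 0.95), Atp6v0c (r = 0.94) and, in the opposite direction, Sapcd1 (r = -0.94).

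Rps3a1 (chromosome 3, 86137940 to 86142702, minus strand), a small-subunit gene, followed the name style within APP: the 8 short-named APP libraries were at 24.9 to 31.8 CPM and the 4 long-named ones at 134 to 150.1 CPM, with no overlap. WT males, all short-named, were at 62.5 to 102 CPM, and WT females at 84.1 to 142.

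**Figure D2:**
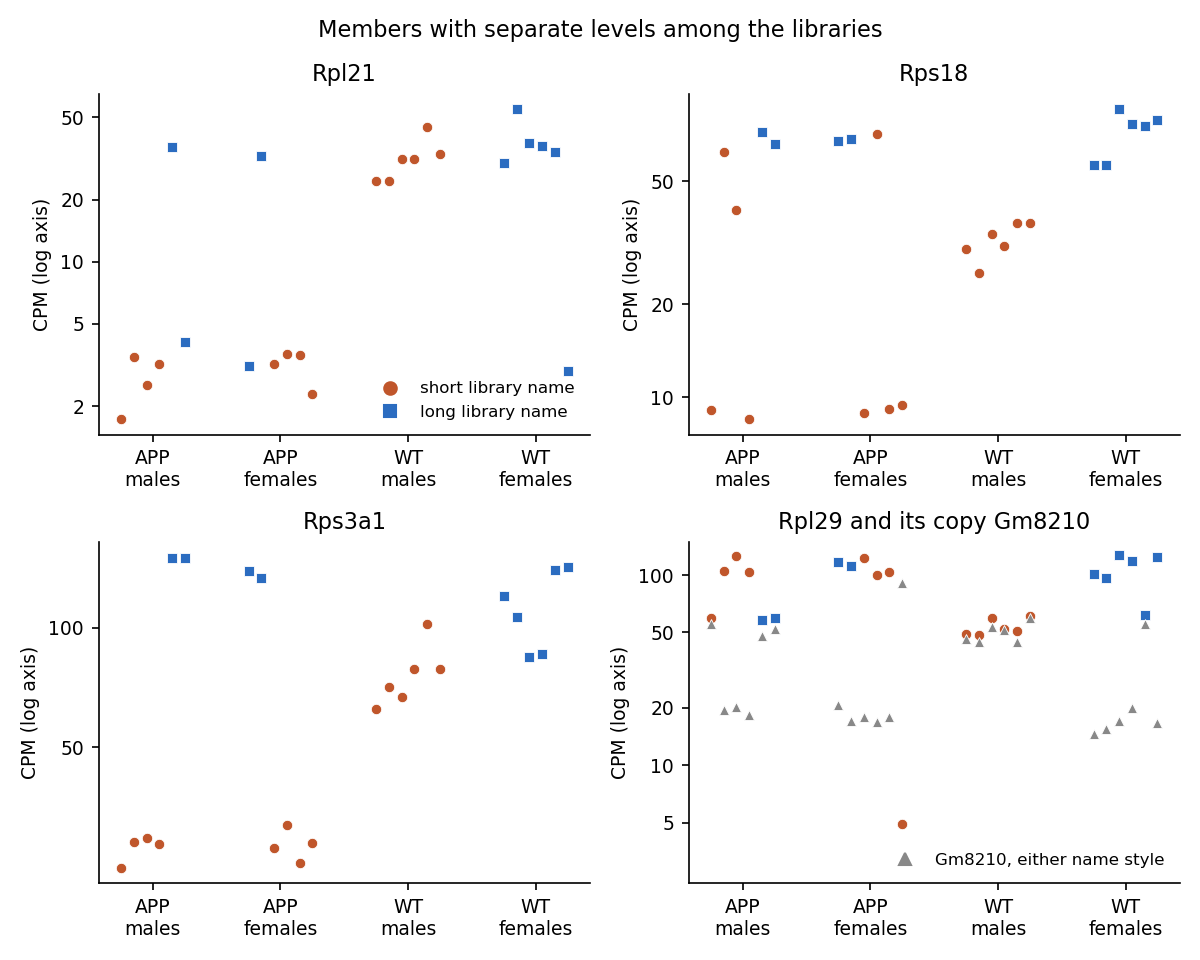
CPM of Rpl21, Rps18, Rps3a1 and Rpl29 in each library (vertical log axes) by group, with circles for short and squares for long library names and grey triangles for Gm8210, the copy of Rpl29. Rpl21 is low in 11 libraries, 10 of them APP, and Rpl29 and Gm8210 mirror each other.

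Name style was tested within APP with the sexes averaged (log2 difference, short minus long; limma with Benjamini-Hochberg adjustment over all genes). No member was higher in short-named libraries, where 3.09% of all genes were, and 6 of 83 were lower, where 6.65% of all genes were. Rps3a1 was lower by the most (-2.30, SE 0.13, adjusted p = 1.4e-10), followed by Rps18 (-1.85, SE 0.47, adjusted p = 0.014), Rpl26 (-0.97, SE 0.21, adjusted p = 0.0058), Rps2 (-0.86, SE 0.24, adjusted p = 0.022), Rpl34 (-0.59, SE 0.10, adjusted p = 0.00093) and Rps28 (-0.41, SE 0.13, adjusted p = 0.044). The count fell to 3 without APP male 5 or without APP female 2. For Rpl26, a large-subunit gene at 30.2 to 88.0 CPM in short-named and 79.0 to 105 CPM in long-named APP libraries, adding its copies turned the difference to 0.14 (SE 0.10, adjusted p = 0.41); its copy Gm15772 ran against it (r = -0.77). For Rpl34 the difference became -0.05 (SE 0.09, adjusted p = 0.80) once its copies were added. Rpl26 made 23.2% and Rpl34 30.2% of these mean sums, so a change in either alone is smaller in its sum.

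Over the 42 members with measured copies, the range between the highest and the lowest library was narrower for the sum than for the member alone in 33. The median range went from 1.80-fold to 1.61-fold, and the widest sum, that of Rpl22l1, varied 2.26-fold. A sum can also be narrower because a steadier copy outweighs the member. The member made 6.12% of the mean sum for Rps27, 23.3% for Rpl21 and 70.8% for Rpl29. The ranges are a description, with no test.

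**Figure D3:**
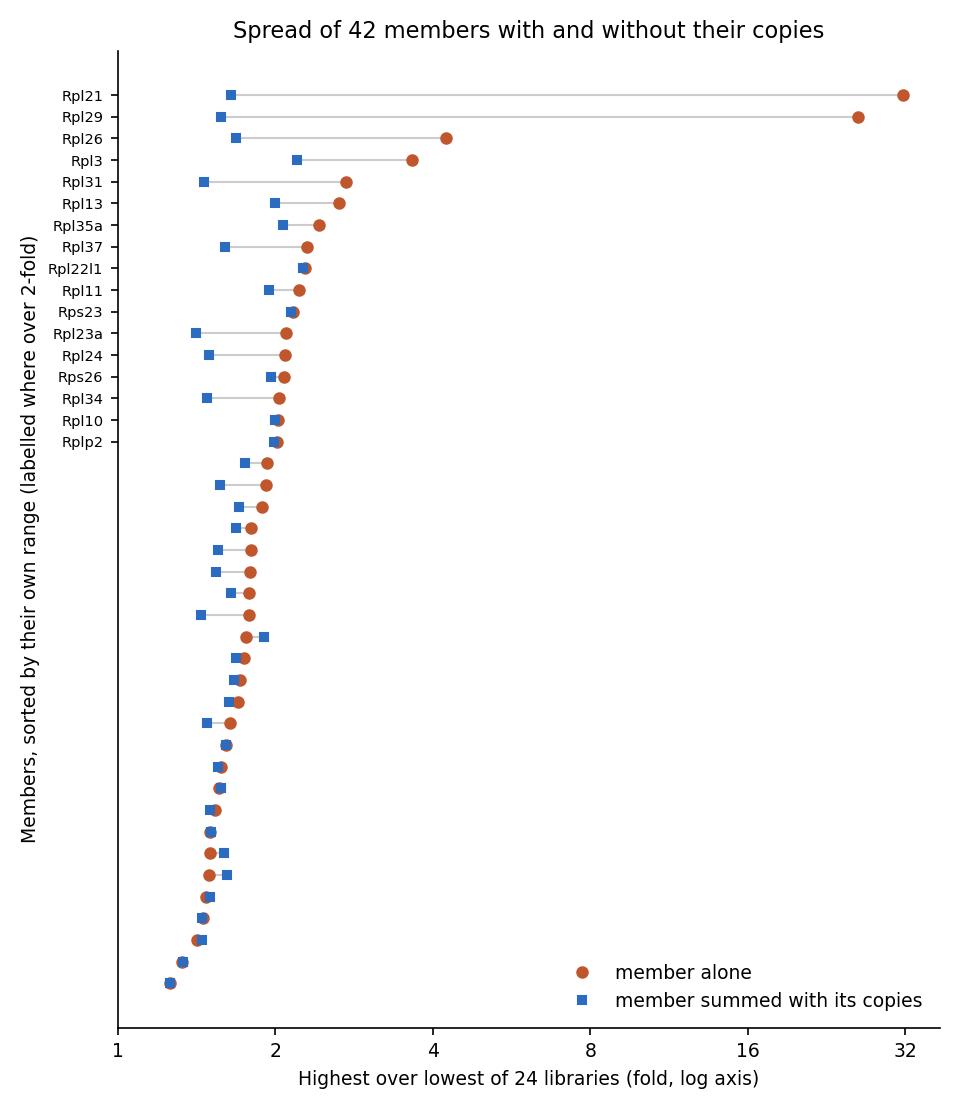
Fold between the highest and lowest of the 24 libraries (horizontal log axis) for the 42 members with measured copies, alone (circles) and summed with those copies (squares); members that vary over 2-fold alone are labelled. Rpl21 goes from 31.7-fold to 1.64-fold and Rpl29 from 25.9-fold to 1.57-fold. They make 23.3% and 70.8% of their mean sums. Of the 42 sums, 33 are narrower.

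The first genotype question is how much ribosomal protein message the vessels held. Summed over the 83 members, APP males had 7893 ± 410 CPM, APP females 7971 ± 561, WT males 6870 ± 621 and WT females 8165 ± 786 (mean ± SD, n = 6 each), that is 0.789%, 0.797%, 0.687% and 0.817% of the library. Lowest, median and highest were 7166, 7974 and 8255 CPM in APP males, 7061, 8135 and 8506 in APP females, 6049, 7015 and 7616 in WT males, and 7039, 8178 and 9028 in WT females. WT males were the low group, and their range overlapped that of each other group. Large-subunit, small-subunit and stalk genes each had their lowest group mean in WT males (3298, 2983 and 588 CPM), and the other 3 groups lay between 3757 and 3890, 3383 and 3498, and 736 and 788 CPM.

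**Figure D4:**
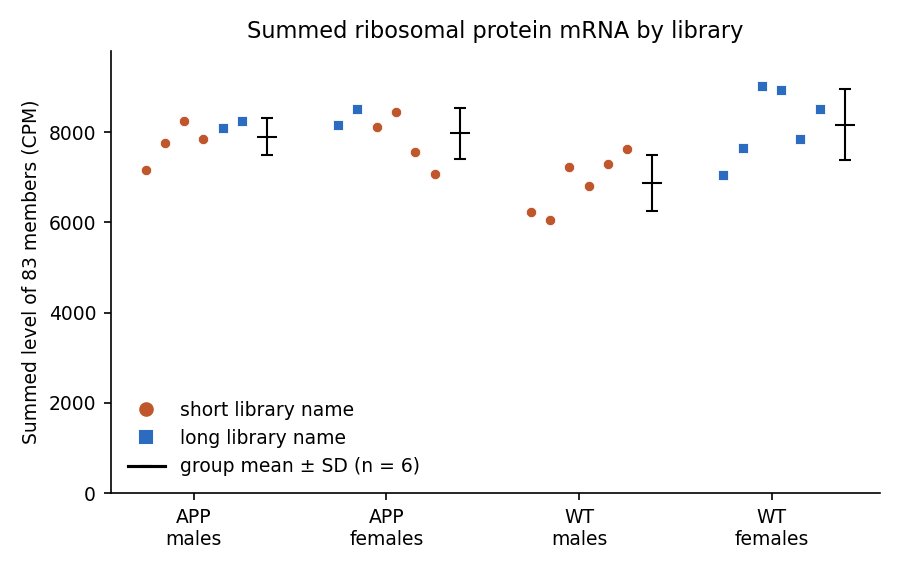
Summed CPM of the 83 members in each library by group, with circles for short and squares for long library names; black bars give the group mean ± SD (n = 6). The WT male mean, 6870 CPM, is the lowest of the 4.

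Among males, APP vessels carried more message of many members. In the limma model over all 24 libraries 15 of 83 were higher and 1, Rpl21, was lower in APP; of all genes, 5.12% were higher and 9.19% lower. The members' median log2 fold change was 0.17, with 74 of 83 above 0, beside -0.02 over all genes. Large-subunit genes gave 9 of the 15 (of 47), small-subunit genes 5 (of 33) and the stalk 1 (of 3).

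Rplp0, the base of the stalk (chromosome 5, 115559467 to 115563727, plus strand), was at 282, 293 and 309 CPM (lowest, median, highest) in the APP males, against 204, 218 and 262 in the WT males. The groups did not overlap, and the log2 fold change was 0.38 (SE 0.08, adjusted p = 0.0044). Rps3, a small-subunit protein that also acts in DNA repair, was at 487, 510.4 and 529 CPM against 364, 434 and 462, again without overlap (0.28, SE 0.07, adjusted p = 0.0073). Rpl3, a core protein near the peptidyl transferase centre, was at 67.0, 90.3 and 108.2 against 52.96, 57.8 and 63.5 CPM (0.61, SE 0.18, adjusted p = 0.029). In Rps26, Rps9 and Rpl6l the log2 fold changes were 0.42 (SE 0.12), 0.33 (SE 0.09) and 0.29 (SE 0.08), with adjusted p of 0.020, 0.011 and 0.018. A further 8 calls (Rpl4, Rpl6, Rpl7a, Rpl7l1, Rpl8, Rpl13a, Rpl32 and Rps14) rose by 0.17 to 0.27. All 6 APP males lay above all 6 WT males in 7 members, among them Rpl3, Rpl4, Rpl6, Rplp0, Rps3 and Rps26, as in 1.51% of all genes, and none lay wholly below, as did 1.96%.

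Calls came more often from members with few copies than from members with many, a difference that was not tested. Of the 14 members with no or 1 near-identical copy 6 were called higher, of 29 with 2 to 5 copies 6, and of 37 with more 2; Rpl6l, which is not a coding gene in the annotation, made the 15th. The medians of these 3 sets were 0.21, 0.17 and 0.14. Within short-named libraries (4 APP males and 6 WT males) 9 members were higher and 4 lower, where 4.4% and 12.8% of all genes were; the lower ones were Rpl21, Rps3a1, Rps28 and Rpl34, and Rpl29 was among the higher (0.82, SE 0.17, adjusted p = 0.0059). Without APP male 6, 2 members were lower in APP males. The count of 15 fell to 7 when males alone were fitted, to 8 without WT male 1 or WT male 4, and to 9 without APP male 3 or WT male 2.

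Other measures moved between the male groups as well. The counts of markers below stand beside 5.12% of all genes higher and 9.19% lower in APP males. Astrocyte markers summed to 337 to 903 CPM with APP against 998 to 1710 without, and 7 of 10 were lower; smooth muscle markers to 1099.8 to 1923 and 1594 to 3253 CPM, with 7 of 8 lower; pericyte markers to 267 to 881 and 542 to 864 CPM, with 3 of 10 lower; oligodendrocyte markers to 522 to 941 and 943 to 1793 CPM, with 3 of 9 lower; ependyma and choroid plexus markers to 638 to 4749.5 and 2836 to 8617 CPM, with 3 of 7 lower; microglia markers to 2471 to 10747 and 2773 to 5682 CPM, with 4 of 11 higher; plaque-associated microglia markers to 404 to 1008 and 216 to 252 CPM, with 8 of 9 higher. The ranges of the astrocyte, oligodendrocyte and plaque-associated sums did not overlap. In females the plaque-associated sums did not overlap either, at 461 to 967 CPM with APP and 225 to 315 without. The female astrocyte sums (341 to 1544 and 487 to 995 CPM) and oligodendrocyte sums (744 to 3505 and 858 to 1212 CPM) overlapped. The members are short genes, with a median exonic length of 1770.0 bases beside 4454 for the others. Among genes that are no members, the male median was 0.05 under 1 kb, 0.02 from 1 to 2 kb, 0.01 from 2 to 4 kb and -0.04 over 4 kb. The part of cell type markers and of gene length in the members' difference was not tested.

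With the sexes averaged, 8 members were higher and 2 lower in APP, beside 4.78% and 7.32% of all genes. Rpl21 fell the most (-2.34, SE 0.44, adjusted p = 0.0012). The levels behind it are the steps above, with 10 of 12 APP and 1 of 12 WT libraries in the low set. With its copies added the difference was -0.24 (SE 0.08, adjusted p = 0.065). Rpl21 made 23.3% of that mean sum, so a fall in Rpl21 alone is smaller in the sum. Rps28, a small-subunit gene on chromosome 17 (33819027 to 33824562, minus strand) with no unique window, was at 6.48, 7.80 and 12.04 CPM in APP males, 6.12, 7.34 and 9.58 in APP females, 9.22, 11.1 and 13.5 in WT males and 8.24, 13.1 and 14.2 in WT females. APP and WT overlapped, and the log2 fold change was -0.49 (SE 0.10, adjusted p = 0.0029).

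Those that were higher included Rps26 (0.26), Rpl6l (0.22), Rps9 (0.20), Rplp0 (0.19), Rpl36al (0.19), Rpl13a (0.19) and Rps3 (0.15), with SE of 0.05 to 0.08 and adjusted p of 0.012 to 0.045. No member separated the genotypes fully in either direction, where 0.124% of all genes lay wholly higher and 0.0146% wholly lower. The count of 8 went to 1 to 5 when any of 15 libraries was left out: APP males 1 to 4 and 6, APP females 1 to 5, WT males 1 and 2, and WT females 1, 2 and 5.

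In females the picture was different: no member was higher in APP, where 2.42% of all genes were, and 2 were lower, where 2.95% were. They were Rps28 (-0.63, SE 0.14, adjusted p = 0.013) and Rpl21 (-2.18, SE 0.62, adjusted p = 0.041). The members' median was -0.05, beside 0.01 over all genes, and 7 had an unadjusted p under 0.05. For unadjusted p the share of all genes was not counted, here or below. No member's groups were free of overlap, higher or lower, where those of 1.47% and 2.33% of all genes were. The count of 2 went to 1 without any of APP females 3 to 6 or WT females 1 to 5. Among the long-named females (2 APP and 6 WT) no member was called in either direction by limma, where 0.226% of all genes were higher and 0.0437% lower; 3 members had an unadjusted p under 0.05. There Rps28 had -0.46 and Rpl21 -1.17, with adjusted p of 0.54 and 0.77.

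**Figure D5:**
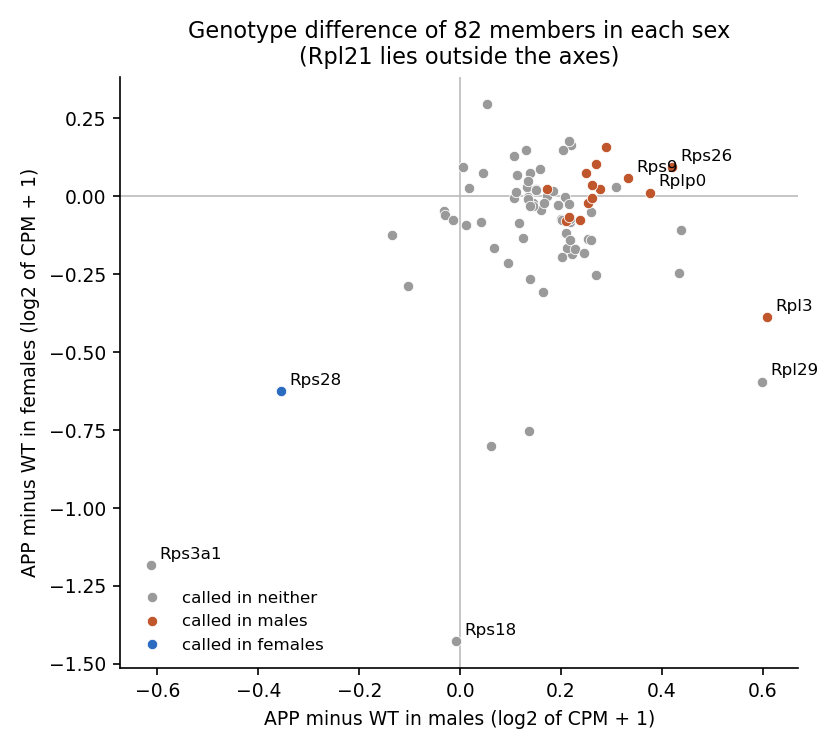
Log2 difference between APP and WT in males (horizontal) and in females (vertical), 1 point per member, coloured by where it was called; Rpl21, called in both sexes at -2.49 and -2.18, lies outside the axes. Most points lie right of 0, with 74 of all 83 members above 0 in males, and spread around 0 in females.

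The difference between the sexes was tested as the genotype by sex interaction (effect in females minus effect in males). No member was higher, beside 4.94% of all genes, and 2 were lower, beside 2.12%. Rpl3 had -0.996 (SE 0.26, adjusted p = 0.026), with a difference of 0.61 in males and lowest, median and highest levels of 29.6, 73.2 and 92.3 CPM in APP females and 66.6, 85.0 and 105 in WT females. Rpl7l1, a relative of Rpl7 associated with ribosome assembly, had -0.29 (SE 0.08, adjusted p = 0.032), at 51.2, 56.4 and 67.8 CPM in APP males, 50.1, 53.05 and 55.7 in APP females, 47.7, 50.2 and 51.2 in WT males and 54.0, 55.9 and 58.4 in WT females. The 29.6 CPM of Rpl3 came from APP female 5. The members' median was -0.22 and 75 of 83 were below 0, beside a median of 0.02 over all genes. The count rose to 11 without WT female 1, to 5 without WT male 3 and to 4 without APP male 5, and was 1 without APP female 6, WT male 4, WT female 2 or WT female 6. With name style as a covariate neither gene passed (adjusted p = 0.21 for Rpl3 and 0.22 for Rpl7l1).

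Both WT groups enter that interaction, and they differed. WT females had 18 members higher than WT males and none lower, beside 8.62% and 5.25% of all genes (limma). An unadjusted p under 0.05 was found for 42 members, a count not made over all genes. The members' median was 0.22, beside 0.02 over all genes. All 6 WT females lay above all 6 WT males in 7 members (Rpl3, Rpl7l1, Rpl26, Rpl29, Rpl34, Rps2 and Rps18), as in 5.11% of all genes, and in none lay below, as in 2.55%. This comparison was added after the data were seen, and in it sex and name style cannot be told apart. It shares the WT males with the male genotype comparison, so both sets of values are only set side by side. Astrocyte markers summed to 487 to 995 CPM in WT females and 998 to 1710 in WT males, without overlap, and 1 of 10 was lower in females. Among genes that are no members the median was 0.09 under 1 kb, 0.09 from 1 to 2 kb, 0.06 from 2 to 4 kb and -0.02 over 4 kb. The part of either in the members' difference was not tested. Rplp0 had 0.37 here and 0.38 there, Rps3 0.27 and 0.28, Rplp1 0.42 and 0.31, and Rplp2 0.42 and 0.23. The last 2 were called here (adjusted p = 0.024 each) and not there (0.09 and 0.22). APP females and APP males, whose name styles are balanced, had no member called by limma in either direction (4.62% and 1.43% of all genes; 2 members with an unadjusted p under 0.05).

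Members that share a subunit's name were set beside each other; Rps4l, Rpl6l and Rpl32l are pseudogenes in the annotation, and the other pairs are coding paralogs. Rpl22 averaged 50.3 CPM per kb and Rpl22l1 10.4; Rpl7 80.2 and Rpl7l1 15.5; Rps27 15.4 and Rps27l 27.9; Rpl36a 3.53 and Rpl36al 15.5; Rps4x 44.4 and Rps4l 35.7; Rpl6 38.4 and Rpl6l 85.4; Rpl32 140.2 and Rpl32l 47.0. In the averaged comparison Rpl36al passed and Rpl36a did not (0.01, SE 0.13), and Rpl6l passed and Rpl6 did not (0.12, SE 0.05); whether the partners differ was not tested. The other 5 pairs had no call there. X-linked Rpl10, Rpl36a and Rps4x averaged 43.0, 5.85 and 72.4 CPM. None was called in either genotype comparison within a sex, nor between WT females and WT males (0.32, 0.26 and -0.02).

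Start regions were searched for the pyrimidine tract, because it is the sequence these messages share by function. The tract was taken as a C followed by at least 5 bases that are each C or T, read on the gene's strand only, starting within 10 bases before to 10 after the annotated start in the RefSeq promoter windows (GRCm38.p6). Of the 83 members 61 had an entry, and 33 of them held a tract (54.1%), beside 2374 of 10414 other measured genes (22.8%). By window, 34 of the members' 72 held it (47.2%), beside 18.5% of all 32851 windows of this length. The search window had been revised once after a trial gave lower shares, so these shares are a description and no test. Among translation factors known to carry the tract 4 of 12 held it, among ribosome biogenesis genes 5 of 45, and among mitochondrial ribosomal proteins 16 of 68. A match describes letters near an annotated start and does not locate the start used in these cells. Windows of 30 bases are shown for Rps6, whose protein is the classic substrate of the S6 kinases below mTORC1, Rps18 and Rpl28, with the tract in capitals.
Rps6, chr4:86857353-86857382, minus strand: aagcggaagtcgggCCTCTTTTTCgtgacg
Rps18, chr17:33955651-33955680, minus strand: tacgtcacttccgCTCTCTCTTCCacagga
Rpl28, chr7:4792950-4792979, plus strand: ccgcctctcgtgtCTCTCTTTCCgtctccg

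Other genes of translation were read from lists in the same model. Of 17 translation factors listed as carrying the tract, 6 were higher and none lower in APP males (5.12% and 9.19% of all genes), with a median of 0.16. The search above had found the tract in 4 of the 12 that had an entry. Eef1a1, the factor that brings aminoacyl-tRNA to the ribosome, averaged 1859 ± 124 CPM in the APP males against 1492 ± 86.8 in the WT males (SD, n = 6; 0.32, SE 0.07, adjusted p = 0.0060). Rack1, a scaffold on the small subunit, averaged 226 ± 7.76 against 179.7 ± 18.1 CPM (0.34, SE 0.06, adjusted p = 0.0016). In females none of the 17 was called and the median was 0.0020. The interaction had 3 lower (2.12% of all genes), Eif3k (-0.36), Rack1 (-0.33) and Eef1g (-0.39), with SE of 0.09, 0.09 and 0.12.

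Ribosome biogenesis genes, which make and assemble ribosomal RNA and proteins, gave 4 of 54 higher and 1 lower in APP males, where 5.12% and 9.19% of all genes were. Nop56, a core protein of the methylation particles that guide rRNA modification, averaged 64.4 ± 9.43 CPM in the males with APP and 50.5 ± 2.56 in those without, against 52.4 ± 2.23 and 66.2 ± 6.85 in females. It was higher in APP males (0.33, SE 0.08), lower in APP females (-0.32, SE 0.08), and the interaction was -0.66 (SE 0.11, adjusted p = 0.0037). Polr1c, a shared subunit of RNA polymerases I and III, had an interaction of -0.44 (SE 0.09, adjusted p = 0.011). Of 24 genes of mTORC1 and the control of ribosomal protein messages, 1 was higher and 2 lower in APP males, shares near those of all genes (5.12% and 9.19%), and 3 were lower in APP females (2.95% of all genes). Eif4ebp1, a repressor of translation that mTORC1 inactivates, averaged 13.7 ± 1.59 CPM in the APP males against 19.8 ± 2.31 in the WT males (-0.50, SE 0.11, adjusted p = 0.0039). Castor1, an arginine sensor that restrains mTORC1, was lower in both sexes (-0.48 and -0.71, SE 0.11 each).

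Among mitochondrial ribosomal proteins, the matching set of the other ribosome, 2 of 77 were higher and none lower in APP males (5.12% and 9.19% of all genes), with a median of 0.03, and the interaction had none in either direction. In WT females 12 of the 77 were higher than in WT males, where 8.62% of all genes were. Against the same male shares, initiation factors had 3 of 30 higher in APP males (Eif5a, Eif5 and Eif3i) and cytosolic aminoacyl-tRNA synthetases 1 of 20 higher (Qars1) and 3 lower (Cars1, Eprs1 and Gars). Messages encoded by mitochondrial DNA were called in neither sex, with medians of -0.29 in males and 0.60 in females. Their summed level took 12568 to 30603 CPM in APP males, 28086 to 42707 in APP females, 20999.6 to 41019 in WT males and 20599 to 30554 in WT females. Fau, which encodes a ribosomal protein fused to a ubiquitin-like sequence and falls outside the name rule, was called in none of these comparisons. In males Fau had 60.9, 74.0 and 90.2 CPM with APP against 50.7, 64.5 and 76.5 without.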

How the data were processed

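Poly(A)-selected RNA of CD31-captured brain vessels was sequenced on an Illumina NextSeq, per the labels' protocols. The submitters' processing notes name mm10; aligner, counter, annotation and strandedness: not given in the sources used here. The deposited values are CPM, which the authors scaled to each library's total. Of 15346 rows 1598 had no value, and 10 repeats were removed, which left 13738 genes. Members, lists and tests were chosen with earlier results of these data known. Log2(CPM + 1) was fitted with limma 3.58.1 (limma-trend, R 4.3.3) on 4 group means, with 6 means for name style; a Benjamini-Hochberg adjusted p under 0.05 over all genes was called, and fold changes on that scale understate low genes. Each library is 1 mouse of 6 a group, per the series' design text. Copies were found with blastn 2.17.0 against GENCODE M21 transcripts, and 50-base windows by exact match. Named were members that copies affect, the 10 largest called rises and falls in the averaged comparison and 5 in the others, the 5 highest and lowest per kb, X-linked members and paralog pairs, and up to 4 genes a list by p. The steps, the genes alike, the copy sums and windows, the WT comparison and the tract were chosen after values were seen; the tract's search window was revised once after a trial gave lower shares. A count of 0 would allow 3 reads, or 0.0395 to 0.0573 CPM if the inferred step is 1 read (counting error only). Alternatives covered scaling, pseudocount, a filter, fits and leaving out each library. The fitting script was tested on simulated data. Some members are not reported by name here.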

Additional observations from a re-analysis of the deposited data

Results flagged for a closer look

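Within groups of 6, the gap of the extreme library to its nearest neighbour took over 0.625 of the group's range in 7 of 160 checks of 39 named members and the summed level; chance flags about 1 in 20. Rpl21 stood apart at 35.8 CPM in APP male 5 (next 4.11) and at 32.5 CPM in APP female 2 (next 3.58). Rpl29 was at 4.88 CPM in APP female 6 (next 99.5), and Rplp1 at 292 CPM in the same library (next 442). Rpl36a was at 9.49 CPM in APP male 4 (next 5.80). In APP male 3 Rpl41 was at 372.5 CPM (next 320.2) and Rps15 at 342.5 (next 318). The genotype difference in females minus that in males differed from 0 for Rpl3 (-0.996) and Rpl7l1 (-0.29). No explanation was tested.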

How the results depend on the processing

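The planned edgeR and DESeq2 alternatives were not run, since the step taken as 1 read could not be settled from the low values of most libraries. Leaving out each library gave, for members higher and lower, 1 to 9 and 2 to 3 with the sexes averaged, 8 to 18 and 1 to 2 in males, 0 and 1 to 2 in females, 0 and 1 to 11 for the interaction, 0 and 0 between APP females and males, and 0 and 3 to 7 for name style. Members lower in the averaged comparison fell from 2 to 1 with a mean of at least 10 CPM (which removes Rps28) and with copies summed in. In males 7 were higher when males alone were fitted and 9 within short names; 4 were lower within short names and with name style as a covariate, and 0 with copies summed in. In females 1 was lower with a mean of at least 10 CPM and with copies summed in, and 0 with name style as a covariate or within long names. The interaction had 1 lower without mitochondrially encoded genes in the total, and 1 higher and 0 lower with the style covariate. TMM scaling gave 1 member lower in APP females than APP males. Rpl26 reversed to 0.14 with copies summed in, by name style. The cause was not tested.

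Same-numbered libraries of different groups did not deviate together (correlations of -0.342 to 0.344 over 12 pairs, the own number highest in 1). With the replicate number as a block, 6 members were lower in the interaction, 18 were higher in males, 10 higher with the sexes averaged and 8 lower by name style; no other count of members moved. Of 814 values of single genes under alternatives, 686 kept their direction and call, 127 lost the call and 1 reversed. The log2 ratio of the summed level, APP over WT, was 0.20 in males and -0.03 in females. Under alternatives of scaling and of copies it was 0.19 to 0.24 and -0.04 to -0.000548. Name style and leaving out libraries were not among these alternatives. The 4 short-named APP males averaged 7753 CPM, against 6870 in the WT males, also short-named. The 2 long-named APP females averaged 8328 CPM, above the 8165 of the WT females, also long-named.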
